A study of Saccharomyces cerevisiae with 8 samples.

Results

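The genes described are the hexose transporter genes HXT1 to HXT7 of budding yeast, Saccharomyces cerevisiae, with the glucose sensor genes SNF3 and RGT2 and the regulator gene MTH1. They were chosen by name, with earlier results of these data known. Every probe set that the platform annotation gave to any of these 10 genes was taken. Each of the 10 genes had exactly 1 probe set with its own symbol, so they made up 10 of the 5580 named genes and of the 7641 features measured. The annotation assigned 0 probe sets to HXT6 and HXT7 together, so they are counted apart below, although their signals may be shared. All 10 genes were above the intensity floor of 97.1 on all 8 arrays, so none of their values is a bound.

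The study measured total RNA on 8 one-colour oligonucleotide arrays in 4 groups of 2, all from yeast in log phase. The groups were the sgs1 null strain with the DNA-alkylating compound methyl methanesulfonate (MMS), the untreated sgs1 null strain, wild type with MMS and untreated wild type. SGS1 encodes a DNA helicase of the RecQ family. The sources used here do not give the strain background, the medium and its carbon source, the cell density at harvest, or how much MMS was used and for how long. Nor do they tell whether the 2 arrays of a group were hybridised with RNA of 2 cultures or of 1, and the p-values therefore rest on a spread between arrays that may be technical.

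Hxt proteins carry glucose and related hexoses across the plasma membrane by facilitated diffusion, and glucose uptake in yeast is set largely by which of them the cell makes. Hxt1 and Hxt3 have low affinity and are made when glucose is plentiful, whereas Hxt2, Hxt4, Hxt6 and Hxt7 serve uptake at lower glucose and are repressed when it is high. Snf3 and Rgt2 resemble transporters but act as receptors, and their signal runs through the casein kinases Yck1 and Yck2 and the ubiquitin ligase SCF-Grr1 to the destruction of Mth1 and Std1. These paralogs are cofactors of the repressor Rgt1 on HXT promoters, so their loss allows HXT transcription.

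Intensities are normalized values on a linear scale, and changes are differences of log2 intensities ± standard error (SE), with p-values from limma adjusted over 7641 features and a threshold of 0.05. Intensities of different genes come from different probes and cannot be set against each other. The deposited SGS1 intensities were 17.7 and 2.1 in the sgs1 null strain with MMS and 1.7 and 2.9 in the untreated null strain, against 339.1 and 577.3 in wild type with MMS and 444.2 and 777.3 in untreated wild type. All 8 arrays thus lay on the side of their strain label. Markers of haploid mating type, checked for other cells in the cultures, gave summed a-specific intensities of 17270.2 to 23606 on the sgs1 null arrays and 14668 to 19139 on the wild-type arrays. The summed alpha-specific intensities were 1628 to 2253 on the sgs1 null arrays and 1665 to 2514 on the wild-type arrays. Each sum is governed by its brightest probe sets, and the a-specific and alpha-specific sums cannot be set against each other.

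MMS lowered HXT4 in both strains and lowered MTH1 in wild type, and 0 of the 10 genes rose past the threshold in either strain. In the sgs1 null strain 1 of the 10 genes, HXT4, fell, beside 1.09% of all features that fell and 1.43% that rose. In wild type 2 of the 10, HXT4 and MTH1, fell, beside 2.93% of all features that fell and 3.42% that rose. Averaged over the strains the same 2 genes fell, beside 6.78% of all features lower and 8.78% higher. The unadjusted p was under 0.05 for 6 of the 10 genes in the sgs1 null strain, against 20.2% of all features, for 4 in wild type, against 24.6%, and for 7 in the average, against 31.7%.

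The median change of the 10 genes with MMS was -0.67 in the sgs1 null strain and -0.30 in wild type, where the median over all features was 0. With MMS in the sgs1 null strain 7 of the 10 genes lay below the untreated arrays with no overlap, against 20.9% of all features. In wild type 6 lay below without overlap, against 24.7% of all features, and 2, HXT1 and HXT3, lay above, against 26.4%. In both strains together, with all 4 MMS arrays below all 4 untreated arrays, there were 3 such genes, HXT4, HXT7 and RGT2, against 9.96% of all features. The plot of intensities by array shows these patterns gene by gene.

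**Figure D1:**
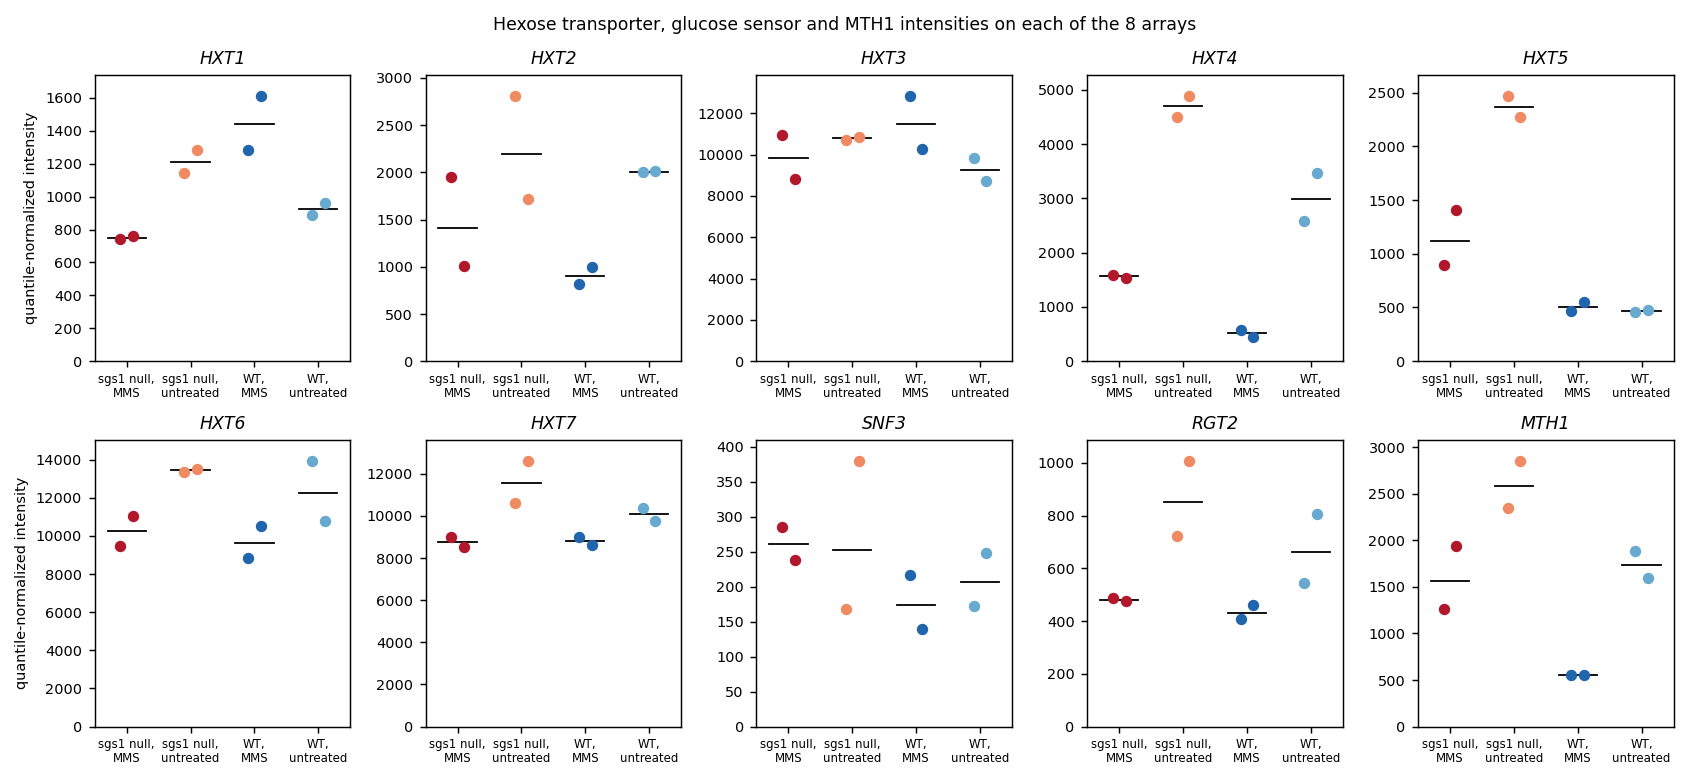
Normalized intensity (linear axis from 0, one panel per gene) of the 10 genes on each of the 8 arrays; points are arrays, black bars are the geometric mean of the 2 arrays of a group, and groups run from sgs1 null with MMS on the left to untreated wild type on the right. HXT4 has its lowest points at 456 and 582 in wild type with MMS and its highest at 4506 and 4889 in the untreated sgs1 null strain, and HXT5 is at 897 or above on all sgs1 null arrays and at 553 or below on all wild-type arrays.

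HXT4, a transporter of the low-glucose group, had intensities of 1596 and 1533 in the sgs1 null strain with MMS and 4506 and 4889 in the untreated null strain. In wild type it had 582 and 456 with MMS and 2588 and 3470.4 untreated. The 4 groups therefore stood in the order wild type with MMS, sgs1 null with MMS, untreated wild type and untreated sgs1 null, with no overlap between neighbours. HXT4 fell with MMS by 1.59 ± 0.19 in the sgs1 null strain, which is 3.00-fold (adjusted p = 0.0319). It fell by 2.54 ± 0.19 in wild type, which is 5.82-fold (adjusted p = 0.00981), and fell by 2.06 ± 0.14 averaged over the strains (adjusted p = 0.00386). The spread between the 2 arrays of a group was much smaller than these falls, with gaps of 0.06 to 0.42 on the log2 scale.

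The average fall of HXT4 passed in all 16 fits run, with adjusted p of 0.000504 to 0.0259. The fall in the sgs1 null strain lost its call without any 1 of the 8 arrays, where the change lay between -1.66 and -1.52. It also lost its call with the floor set only for values at or below 0 (adjusted p = 0.0522). The fall in wild type lost its call without any 1 of the 4 wild-type arrays, where the change lay between -2.74 and -2.31. Every fit with an array left out also called fewer features for MMS in each strain and averaged. Such losses of calls are therefore not particular to HXT4.

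HXT2, another transporter made at low glucose, had 1949.5 and 1013 in the sgs1 null strain with MMS and 2810.1 and 1719.95 in the untreated null strain. In wild type it had 821 and 1000.1 with MMS and 2001 and 2011 untreated. The null groups overlapped, because the array marked as the repeat was lower in each of them, by 0.94 on the log2 scale with MMS and by 0.71 untreated, where the median gap of all features was 0.35 and 0.31. The wild-type groups did not overlap. The change with MMS was -0.65 ± 0.39 in the null strain (adjusted p = 0.450) and -1.15 ± 0.39 in wild type (adjusted p = 0.159), and neither passed, nor did the average of -0.90 ± 0.28 (adjusted p = 0.0955). Without the first null array with MMS the null-strain change was -1.12, and without the repeat array it was -0.17. With the dimmest 25% of features left out the average passed (adjusted p = 0.0444).

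HXT1, the low-affinity transporter gene that high glucose induces, had 744 and 759 in the sgs1 null strain with MMS and 1142 and 1286 in the untreated null strain. In wild type it had 1284 and 1613 with MMS and 888 and 959 untreated. With MMS both null arrays were thus below the untreated null arrays, while both wild-type arrays were above the untreated wild-type arrays. The change was -0.69 ± 0.14 in the null strain (adjusted p = 0.0793) and 0.64 ± 0.14 in wild type (adjusted p = 0.0646), and neither passed. With median centring the wild-type value was 0.65 and passed (adjusted p = 0.0485). The order of the groups was sgs1 null with MMS, untreated wild type, then untreated sgs1 null and wild type with MMS, and these last groups overlapped.

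HXT3, the other low-affinity transporter gene, had 10936 and 8841 in the sgs1 null strain with MMS and 10728 and 10865 in the untreated null strain. In wild type it had 12848 and 10257.5 with MMS and 9838 and 8711 untreated. It varied little over the arrays, and its null groups overlapped. The change with MMS was -0.13 ± 0.17 in the null strain (adjusted p = 0.744), with a 95% interval of -0.56 to 0.29. It was 0.31 ± 0.17 in wild type (adjusted p = 0.336), with an interval of -0.12 to 0.74, and under median centring that wild-type value was -0.010.

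HXT6 and HXT7 encode high-affinity transporters that are nearly identical to each other, and they lie side by side on chromosome IV. Their separate probe sets are of the kind marked as shared by a sequence family, so signal of one gene may have been counted for the other. HXT6 had 9490.3 and 11040.2 in the sgs1 null strain with MMS and 13373 and 13508 in the untreated null strain, against 8829 and 10503.5 in wild type with MMS and 13928 and 10761 in untreated wild type. HXT7 had 9005 and 8525 in the null strain with MMS and 10613 and 12606 in the untreated null strain, against 8983 and 8608 in wild type with MMS and 10396 and 9761 in untreated wild type. Both genes were lower with MMS on every array of each strain.

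With quantile normalization none of these differences passed. The change of HXT6 was -0.39 ± 0.17 in the null strain (adjusted p = 0.295) and -0.35 ± 0.17 in wild type (adjusted p = 0.298). The change of HXT7 was -0.40 ± 0.11 in the null strain (adjusted p = 0.139) and -0.20 ± 0.11 in wild type (adjusted p = 0.360). The averages were -0.37 ± 0.12 for HXT6 (adjusted p = 0.109) and -0.30 ± 0.08 for HXT7 (adjusted p = 0.0659). With median centring the wild-type change was -0.71 for HXT6, which passed (adjusted p = 0.0327), and -0.55 for HXT7, which did not (adjusted p = 0.231), and the HXT7 average was -0.54. On the deposited scale the wild-type changes were -0.56 for HXT6 and -0.40 for HXT7. The HXT6 average passed with median centring (-0.61, adjusted p = 0.0127) and on the deposited scale (-0.51, adjusted p = 0.0261).

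HXT5 encodes a transporter of moderate affinity that is known for its expression in slowly growing and starved cells rather than for a response to glucose itself. It had 897 and 1406 in the sgs1 null strain with MMS and 2469.6 and 2273 in the untreated null strain, against 469 and 553 in wild type with MMS and 454 and 477 in untreated wild type. The wild-type groups overlapped and lay below the null strain with MMS, which lay below the untreated null strain. In the null strain the change with MMS was -1.08 ± 0.23, a 2.11-fold lower intensity that did not pass (adjusted p = 0.0877). In wild type it was 0.13 ± 0.23 (adjusted p = 0.800).

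RGT2, the sensor of high glucose, had 489 and 475 in the sgs1 null strain with MMS and 721 and 1007 in the untreated null strain, against 407 and 460.2 in wild type with MMS and 543 and 807 in untreated wild type. All 4 MMS arrays were below all 4 untreated arrays. The change was -0.82 ± 0.25 in the null strain (adjusted p = 0.166), -0.61 ± 0.25 in wild type (adjusted p = 0.221) and -0.72 ± 0.18 averaged (adjusted p = 0.0578), and none passed. With the dimmest 25% of features left out the average passed (adjusted p = 0.041).

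SNF3, the sensor of low glucose, had 285 and 238 in the sgs1 null strain with MMS and 168 and 379 in the untreated null strain, against 216 and 139 in wild type with MMS and 173 and 248 in untreated wild type. In each strain the MMS arrays overlapped the untreated arrays, with MMS the null arrays were above the wild-type arrays, and the untreated null arrays alone differed by 1.17 on the log2 scale. The change with MMS was 0.05 ± 0.47 in the null strain (adjusted p = 1), which turned to -0.22 under median centring and -0.16 on the deposited scale, and -0.25 ± 0.47 in wild type (adjusted p = 0.808). At an SE of 0.47, a change of that size in SNF3 was not detectable with these arrays.

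MTH1, whose product keeps HXT promoters repressed when glucose is absent and whose own gene is repressed by glucose, had 1265 and 1944 in the sgs1 null strain with MMS and 2346 and 2853 in the untreated null strain. In wild type it had 559 and 551 with MMS and 1891 and 1597 untreated. The wild-type MMS arrays were the lowest, the untreated null arrays the highest, and the remaining groups overlapped between them. MTH1 fell with MMS in wild type by 1.65 ± 0.24, which is 3.13-fold (adjusted p = 0.0305), and averaged over the strains fell by 1.18 ± 0.17 (adjusted p = 0.0162). In the null strain the change was -0.72 ± 0.24 (adjusted p = 0.188).

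The wild-type call of MTH1 was lost without any 1 of the 4 wild-type arrays or without either untreated null array (adjusted p from 0.0561 to 0.135). The average was lost without the repeat array of the untreated null strain (adjusted p = 0.0503) or without any 1 of the wild-type arrays (adjusted p from 0.0532 to 0.0618).

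**Figure D2:**
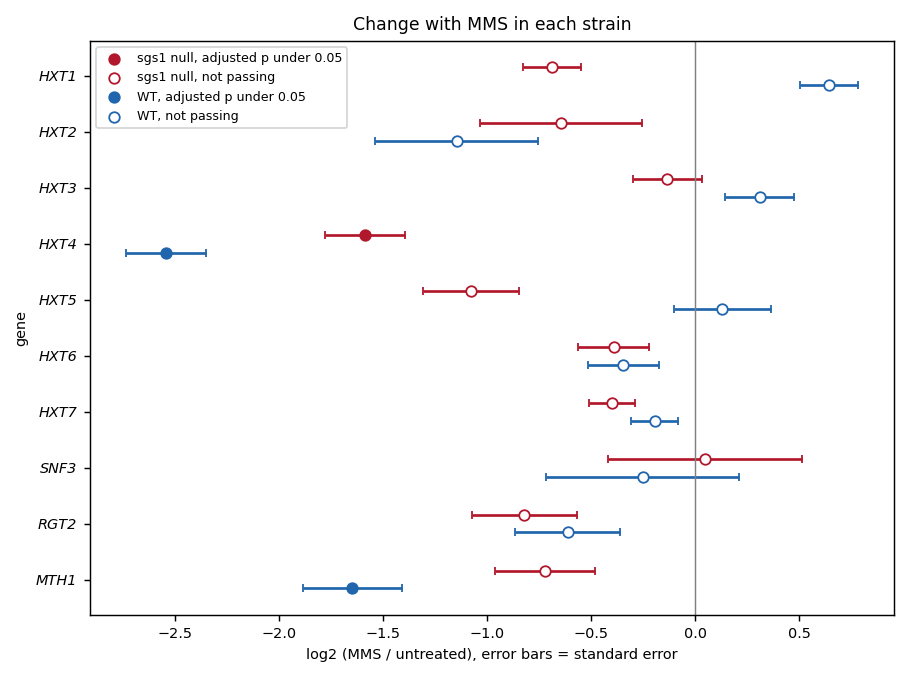
Change with MMS (log2 of MMS minus untreated, linear axis) of each of the 10 genes in the sgs1 null strain and in wild type; points are estimates, filled where they passed the threshold, and bars are ± 1 SE of the limma fit. HXT4 lies lowest in both strains, at -1.59 and -2.54, and HXT1 lies below 0 in the null strain and above 0 in wild type.

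Between the strains without treatment, 0 of the 10 genes passed in limma, and 0.0262% of all features did. The unadjusted p was under 0.05 for 3 of the 10, against 10.5% of all features. The median difference of the sgs1 null strain from wild type was 0.33. In all 10 genes the estimate was above 0, but with median centring 4 of them, HXT2, HXT3, HXT6 and HXT7, were below 0, and on the deposited scale HXT6 was. Without overlap between the strains 6 of the 10 genes were higher in the null strain, against 19.3% of all features.

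HXT5 had the widest difference of the 10, with 2469.6 and 2273 in the untreated null strain against 454 and 477 in untreated wild type. The difference was 2.35 ± 0.23, or 5.09-fold, and did not pass (adjusted p = 0.0858). It passed when the dimmest 25% of features were left out (adjusted p = 0.022) and when the floor was set only for values at or below 0 (adjusted p = 0.0494). HXT4 differed by 0.65 ± 0.19 (adjusted p = 0.385), MTH1 by 0.57 ± 0.24 (adjusted p = 0.501) and HXT1 by 0.39 ± 0.14 (adjusted p = 0.455). The other differences lay between 0.13 and 0.36.

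With MMS in both strains, 0 of the 10 genes passed in limma, and 0.0131% of all features did. The unadjusted p was under 0.05 for 4 of the 10, against 6.18% of all features. Without overlap 6 genes were higher in the sgs1 null strain, against 12.6% of all features, and 1, HXT1, was lower, against 12.9%. HXT4 had 1596 and 1533 in the null strain against 582 and 456 in wild type, a difference of 1.60 ± 0.19 or 3.04-fold (adjusted p = 0.234). MTH1 had 1265 and 1944 in the null strain against 559 and 551 in wild type, a difference of 1.50 ± 0.24 or 2.83-fold (adjusted p = 0.299). Both genes were thus higher on each null array than on each wild-type array.

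Under MMS the difference of HXT5 was 1.14 ± 0.23 (adjusted p = 0.418) and that of HXT1 was -0.94 ± 0.14 (adjusted p = 0.299). HXT2 differed by 0.63 ± 0.39, SNF3 by 0.59 ± 0.47 and RGT2 by 0.16 ± 0.25, each with an adjusted p of 1. Without the first null array with MMS the HXT2 difference was 0.16, and without the repeat array it was 1.11. HXT3 differed by -0.22 ± 0.17, HXT6 by 0.09 ± 0.17 and HXT7 by -0.01 ± 0.11. These strain differences and the MMS changes of the null strain use the same null arrays with MMS, so they are not independent of each other.

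Averaged over the treatments, 0 of the 10 genes passed in limma, and 0.157% of all features did. An unadjusted p under 0.05 was found for 4 of the 10, against 11.2% of all features. HXT5 differed by 1.74 ± 0.16, or 3.35-fold (adjusted p = 0.0625), and it was the 1 gene of the 10 that was higher on all 4 null arrays than on all 4 wild-type arrays, against 1.83% of all features. HXT4 differed by 1.13 ± 0.14 (adjusted p = 0.0893) and MTH1 by 1.04 ± 0.17 (adjusted p = 0.145). The HXT5 average passed with the floor for values at or below 0 only (adjusted p = 0.0201) and with the dimmest features left out (adjusted p = 0.00785), and in that last setting HXT4 passed as well (adjusted p = 0.0498).

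**Figure D3:**
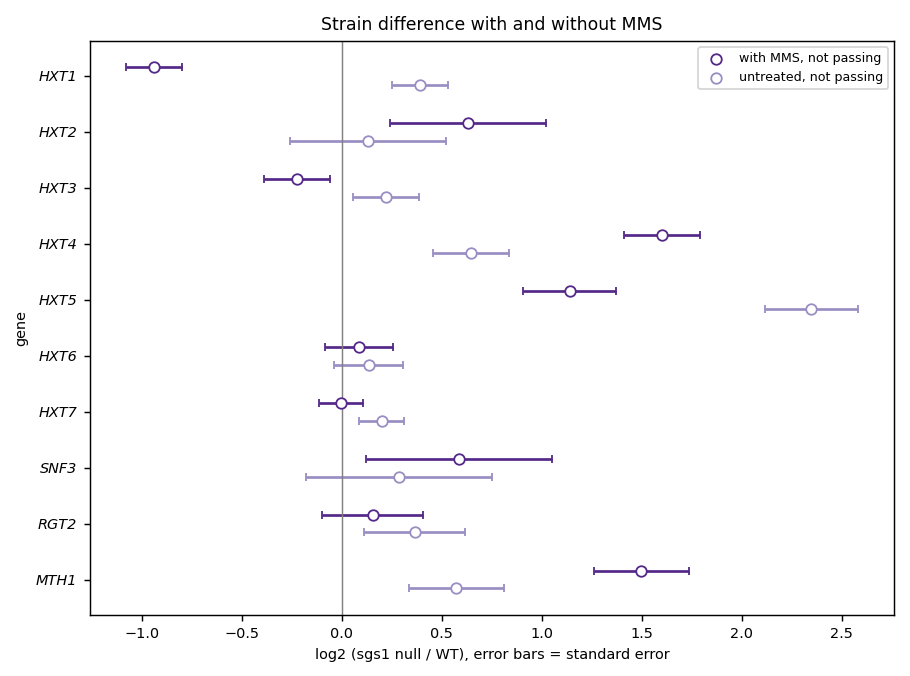
Difference between the strains (log2 of sgs1 null minus wild type, linear axis) of each of the 10 genes with MMS and untreated; points are estimates and bars are ± 1 SE of the limma fit. HXT5 lies highest untreated, at 2.35, HXT4 and MTH1 lie highest with MMS, at 1.60 and 1.50, and HXT1 lies lowest with MMS, at -0.94, none of them past the threshold.

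The difference between the MMS responses, sgs1 null minus wild type, asks whether the strain changed the response itself. In limma 0 of the 10 genes passed, with 4 at an unadjusted p under 0.05, and 0% of all features passed, with 363 features, or 4.75%, at an unadjusted p under 0.05. HXT1 stood at -1.33 ± 0.20 (adjusted p = 0.812) and HXT5 at -1.21 ± 0.33 (adjusted p = 0.997). HXT4 stood at 0.96 ± 0.27 (adjusted p = 0.997) and MTH1 at 0.93 ± 0.34 (adjusted p = 1). For HXT4 and MTH1 a positive value means a smaller fall in the null strain, and neither difference in response passed.

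The 10 genes differed in how much they varied over the 8 arrays. The standard deviation of log2 intensity was 1.29 for HXT4, more than for 99.4% of the 5580 named genes, 1.04 for HXT5 (98.4%) and 0.90 for MTH1 (97.0%). It was 0.63 for HXT2 (86.2%), 0.46 for SNF3 (66.1%) and for RGT2 (65.3%), and 0.40 for HXT1 (52.2%), where the median over named genes was 0.39. HXT6 (0.25, above 16.4% of named genes), HXT7 (0.19, above 7.81%) and HXT3 (0.18, above 6.43%) varied least. These spreads were taken after quantile normalization. With median centring the wild-type changes with MMS were larger for HXT6 (-0.71) and HXT7 (-0.55) and smaller for HXT3 (-0.010).

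By the RefSeq gene table of assembly R64, HXT4, HXT1 and HXT5 lie together on chromosome VIII, with AHT1 between HXT4 and HXT1. With MMS, HXT4 fell in both strains, HXT1 had estimates of opposite sign, and HXT5 had an estimate below 0 in the null strain and near 0 in wild type. On chromosome IV, HXT7 and HXT6 are followed by YDR344C and HXT3, and SNF3, RGT2 and MTH1 lie elsewhere on that chromosome. HXT2 lies on chromosome XIII.

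For each gene at or above the median spread, the 3 most similar of 5270 named genes were found by the root mean square difference of log2 intensity over the 8 arrays, each gene taken relative to its own mean. COX26 (0.33), SPG4 (0.42) and YER084W (0.45) were nearest to HXT4, and PUT4 (0.36), COS8 (0.39) and SSA3 (0.39) to HXT5. SPG4 is named for its requirement in stationary phase, PUT4 encodes a proline permease, and SSA3 encodes a heat-shock protein of the Hsp70 family. SSK22 (0.24), ISF1 (0.24) and PUT1 (0.29) were nearest to MTH1, PUT1 encoding proline oxidase.

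For the remaining genes, SNR70 (0.21), GSC2 (0.22) and CAB3 (0.22) were nearest to HXT1, and MRA1 (0.25), MET3 (0.25) and SMP1 (0.26) to HXT2. GCR1 (0.11), GTF1 (0.15) and TRK2 (0.15) were nearest to RGT2, GCR1 encoding an activator of glycolytic genes. KAR9 (0.19), CLN2 (0.20) and SBH1 (0.21) were nearest to SNF3. Among the 10 genes themselves the closest pair was HXT6 and HXT7 (0.15). Both varied less than the median named gene and their signals may be shared, and either keeps this difference small. These are likenesses over 8 arrays of 4 groups, and they carry no test.

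The signalling step from the sensors to the HXT promoters was followed in 11 genes, all measured. With MMS, 1 of them fell in the sgs1 null strain, while in wild type 1 fell and 1 rose. Of all features 1.09% fell and 1.43% rose in the null strain, and 2.93% fell and 3.42% rose in wild type. STD1, the paralog of MTH1, had 983 and 1039 in the null strain with MMS and 1890.1 and 1961 in the untreated null strain, against 1065 and 965 in wild type with MMS and 2375 and 2149 in untreated wild type. It fell by 0.93 ± 0.10 in the null strain (adjusted p = 0.0269) and fell by 1.16 ± 0.10 in wild type (adjusted p = 0.0123), with no overlap in either. Averaged over the strains STD1 fell in all 16 fits, while the null-strain call was lost without any 1 of the 8 arrays and the wild-type call without any 1 of the wild-type arrays. The null-strain call was also lost on the deposited scale (adjusted p = 0.0645), with the floor for values at or below 0 only (adjusted p = 0.114) and with the dimmest 25% of features left out (adjusted p = 0.0703).

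CDC53, the cullin scaffold of SCF ubiquitin ligases including SCF-Grr1, had 3104 and 3309 in the null strain with MMS and 1568 and 1047 in the untreated null strain, against 3549 on both arrays of wild type with MMS and 968 and 1134 in untreated wild type. It rose by 1.76 ± 0.21 in wild type (adjusted p = 0.0216) and by 1.54 ± 0.15 averaged (adjusted p = 0.00723). In the null strain its change was 1.32 ± 0.21 (adjusted p = 0.0541). The average passed in all 16 fits, and the wild-type call was lost without any 1 of the wild-type arrays or either null array with MMS. MIG2, a glucose-induced repressor, fell in the average by 0.84 ± 0.14 (adjusted p = 0.0237), a call lost on leaving out an array other than the first of wild type with MMS, and the other genes of this step, RGT1, GRR1, YCK1, YCK2, SKP1, TUP1, CYC8 and MIG3, did not pass.

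Of 15 measured glucose-repressed genes outside the transporter family, out of 17 listed, 3 fell with MMS in the sgs1 null strain, 4 in wild type and 6 in the average, and 0 rose. Of all features 1.09% fell past the threshold in the null strain, 2.93% in wild type and 6.78% in the average. The median change was -0.46 in the null strain, -0.89 in wild type and -0.68 in the average. ADH2, the alcohol dehydrogenase that consumes ethanol, fell by 1.89 ± 0.15 in the null strain (adjusted p = 0.0190) and fell by 2.88 ± 0.15 in wild type (adjusted p = 0.00703). GAL10, of galactose use, fell by 1.29 ± 0.10 in the null strain (adjusted p = 0.0170) and fell by 1.40 ± 0.10 in wild type (adjusted p = 0.00959). GAL1, also of galactose use, did not fall. Its mean log2 intensity was 7.03 with MMS and 6.60 untreated in the null strain, and 6.88 and 6.81 in wild type. It lay at the floor on both untreated null arrays and on 1 array of each MMS group. FBP1 lay at the floor on both arrays of wild type with MMS, so changes of both genes are partly bounds.

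MAL11, a maltose permease, fell by 1.96 ± 0.27 in the null strain (adjusted p = 0.0421) and fell by 2.25 ± 0.27 in wild type (adjusted p = 0.0220). ICL1, of the glyoxylate cycle, fell in wild type by 1.28 ± 0.21 (adjusted p = 0.0359). SUC2, which encodes invertase, fell by 1.42 ± 0.27 in the average (adjusted p = 0.0321), and ACS1, of acetyl-CoA synthesis, fell by 1.21 ± 0.22 (adjusted p = 0.0285). The averages of ADH2, GAL10 and MAL11 passed in all 16 fits. Without any 1 of the 8 arrays the null-strain calls of GAL10 and MAL11, the wild-type call of ICL1 and the average of SUC2 were lost. The null-strain call of ADH2 was lost without any array other than the untreated null arrays, the wild-type calls of ADH2 and GAL10 without any wild-type array, that of MAL11 without any wild-type or untreated null array, and the average of ACS1 without any array other than the repeat array of the untreated null strain. On the deposited scale MAL11 in the null strain (adjusted p = 0.0729), ICL1 in wild type (adjusted p = 0.0518) and the average of ACS1 (adjusted p = 0.0565) did not pass, and with the floor for values at or below 0 only GAL10 in the null strain did not (adjusted p = 0.0561). HXT4 and MTH1 thus fell beside some other genes that glucose represses. In the average 9 of the 15 measured genes of this list did not pass, nor did HXT2, HXT6 and HXT7. MIG2, which glucose induces, fell in the average as well. The cause of these falls was not tested.

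**Figure D4:**
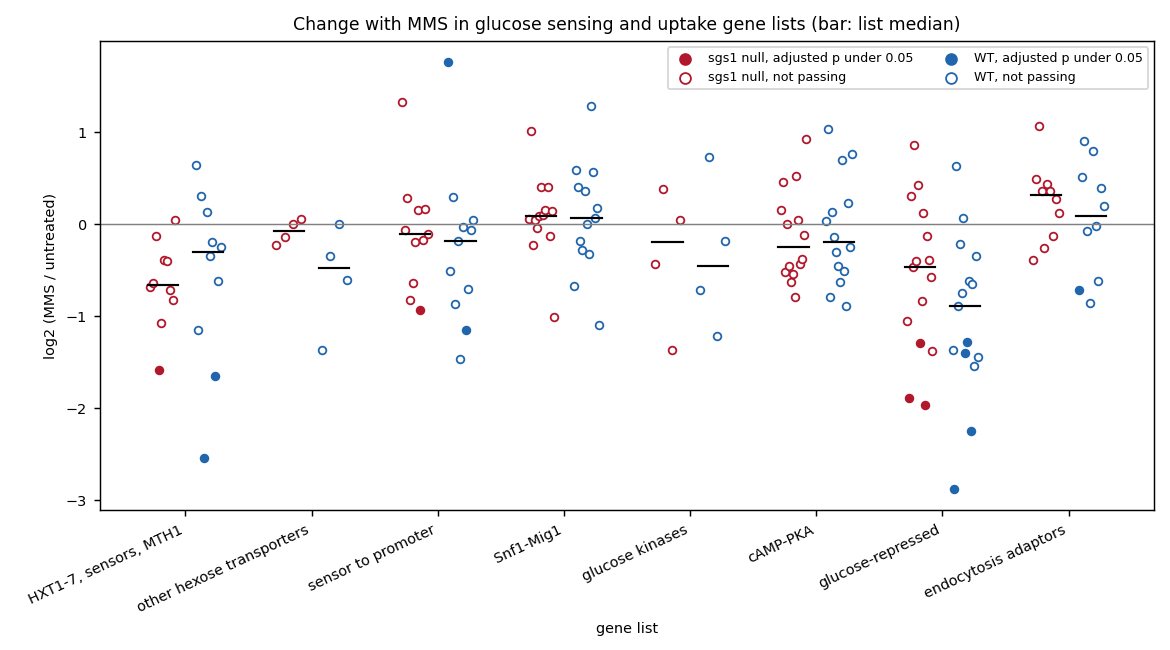
Change with MMS (log2 of MMS minus untreated, linear axis) of the 10 genes and of every measured gene of each pathway list, in the sgs1 null strain and in wild type; each point is 1 gene, filled points passed the adjusted threshold, and bars are list medians. Genes of the glucose-repressed list reach down to -2.88 (ADH2 in wild type), and the one rise past the threshold is CDC53 in wild type at 1.76.

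Few genes of the remaining lists passed with MMS. Past the threshold 1.09% of all features fell and 1.43% rose in the sgs1 null strain, and 2.93% fell and 3.42% rose in wild type. The counts of these lists at an unadjusted p under 0.05 stand beside 20.2% of all features in the sgs1 null strain and 24.6% in wild type. Of 13 genes of Snf1-Mig1 glucose repression 0 passed in limma, with 1 at an unadjusted p under 0.05 in the sgs1 null strain and 2 in wild type. Of the 4 genes of glucose phosphorylation 0 passed, with 0 and 2 at an unadjusted p under 0.05. HXK1, the hexokinase gene that glucose represses, had estimates of -1.37 ± 0.55 in the null strain and of -1.22 ± 0.55 in wild type, and its MMS arrays differed widely, with 2235 and 4616 in the null strain and 2570.5 and 6295 in wild type.

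Of 14 measured genes of cAMP and protein kinase A signalling, out of 15 listed, 0 passed, with 0 at an unadjusted p under 0.05 in the null strain and 3 in wild type. Of 10 genes for the ubiquitin ligase Rsp5 and adaptors of transporter endocytosis 1 passed, ALY1, an arrestin-related adaptor, which fell by 0.72 ± 0.11 in wild type (adjusted p = 0.0354). That call was lost without any 1 of the wild-type arrays or either null array with MMS. It was also lost on the deposited scale (adjusted p = 0.0672), with the floor for values at or below 0 only (adjusted p = 0.125) and with the dimmest 25% left out (adjusted p = 0.0960). Averaged over the strains the change of ALY1 was -0.55 and passed. The average lost its call with the floor for values at or below 0 only (adjusted p = 0.0661) and in some fits with an array left out. In the strain differences and in the difference between responses, 0 genes of any of these lists passed in limma.

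Of the 11 other members of the hexose transporter family 4 had a probe set of their own, HXT8, HXT10, HXT14 and GAL2, and 0 of them passed. HXT14 lay at the floor on all 8 arrays, so no change could have been seen in it. HXT8 lay at the floor on both arrays of wild type with MMS, and HXT10 on both null arrays with MMS. Each was also at the floor on some other arrays, so their changes are partly bounds. GAL2, the galactose permease, had an estimate of -1.37 ± 0.28 in wild type (adjusted p = 0.0598). Its first array of wild type with MMS lay at the floor, so this estimate is partly a bound. A probe set annotated to HXT13, HXT15, HXT16 and HXT17 together had 249 and 212 in the sgs1 null strain with MMS and 409.6 and 311 in the untreated null strain, against 219 and 287 in wild type with MMS and 644 and 610.0 in untreated wild type. It fell by 1.32 ± 0.20 in wild type (adjusted p = 0.0335), while its change in the null strain was -0.64 ± 0.20 (adjusted p = 0.179). Averaged over the strains its change was -0.98 ± 0.14 (adjusted p = 0.0175), a call lost in some fits with an array left out. The 4 genes cannot be told apart. The wild-type call was lost without any 1 array except the repeat array of the untreated null strain, and on the deposited scale (adjusted p = 0.0642). Both probe sets annotated to HXT9 and HXT11 did not pass. One of them had estimates of 0.42 ± 0.47 in the null strain (adjusted p = 0.714) and -0.53 ± 0.47 in wild type (adjusted p = 0.561), and the other lay at the floor on 7 of the 8 arrays.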

How the data were processed

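The authors' deposited values were linear intensities, 1 for each probe set on each array. The sources used here do not name the array software, scaling, centring or background correction. Of 8363 probe sets, 32 controls and 1 with a missing value were left out. Of the remaining 8330, 6269 had 1 gene symbol, 309 several and 1752 none. Arrays were quantile normalized, every value below the 10th percentile (97.1, 10.0% of values) was raised to it, and probe sets of 1 gene were averaged as log2 values. Group means over all 8 arrays were fitted with limma 3.58.1 in R 4.3.3 (4 residual and 0.986 prior degrees of freedom), with 7 two-sided comparisons, each with Benjamini-Hochberg adjustment over 7641 features. The fit was tested on simulated data with noise drawn independently for each array, which leaves out deviations shared between arrays. With 2 arrays against 2, an exact permutation test cannot go below p = 0.333, so none is given, and precision is limited by having so few arrays. The genes, lists and tests were chosen with earlier results of these data known. Every gene of the set is named, and from each list up to 4 genes with the smallest p and any past the threshold were open to naming. Other listed genes are named only where they did not pass or lay at the floor. Alternatives were median centring, the deposited scale, 2 other floors, the brightest probe set per gene, the dimmest 25% of features left out, a replicate block and each array left out in turn. Gene order is from RefSeq assembly R64, and sequences were not analysed here.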

Additional observations from a re-analysis of the deposited data

Results flagged for a closer look

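HXT1, the low-affinity transporter gene, stood out because its arrays moved in opposite directions with MMS: both sgs1 null arrays with MMS were below the untreated null arrays, and both wild-type arrays with MMS were above the untreated wild-type arrays. The difference between the responses, sgs1 null minus wild type, was -1.33 ± 0.20 and was tested in limma, where it did not pass (adjusted p = 0.812). Opposite moves without overlap in both strains were shown by 110 of 7641 features, or 1.44%.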

How the results depend on the processing

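Over the 7 settings other than leaving out an array, 357 of 381 recomputed values of the 10 genes kept their direction and their side of the threshold. Many of these could not change direction. The brightest probe set, the floor for values at or below 0 only, the dimmest features left out and the replicate block leave the estimates unchanged. In those settings only the p-values could move. With median centring, the genes called for MMS in wild type numbered 4, with HXT1 and HXT6 added, HXT3 there was -0.0105, SNF3 with MMS in the null strain was -0.22, and the untreated strain differences of HXT2 (-0.0020), HXT3 (-0.0088), HXT6 (-0.16) and HXT7 (-0.072) turned below 0. The features called between strains with MMS then numbered 3. On the deposited scale SNF3 was -0.16 and HXT6 -0.020 in those comparisons, and 4, 2 and 4 features were called between strains untreated, with MMS and averaged. With the floor for values at or below 0 only, 0 of the 10 genes (HXT4 at adjusted p = 0.0522) and 56 features were called for MMS in the null strain. Between strains that floor called 1 gene, HXT5, and 13 features untreated, and 1 gene, HXT5, and 30 features averaged. With the floor at the 20th percentile SNF3 was -0.11, and 6 features were called between untreated strains and 1 for the difference in response. Without the dimmest 25% of features, which takes out SNF3, the genes called were 1 between untreated strains, 4 for MMS averaged (HXT2 and RGT2 added) and 2 for the strains averaged, with 10, 4 and 25 features called between strains untreated, with MMS and averaged. The labels state no pairs. Deviations of arrays sharing the repeat mark correlated from -0.08 to 0.67 over 6 pairs of groups. The correlation was highest between the MMS groups of the strains (0.67) and was 0.54 between the wild-type groups. Arrays of some groups thus deviated together, and whether they shared a batch was not tested. A fit with the mark as a replicate block called 2 genes (HXT1 added, adjusted p = 0.0433) and 496 features for MMS in the null strain. It added HXT1 in wild type as well (adjusted p = 0.0344), with 935 features called, and RGT2 in the average (adjusted p = 0.0307), with 1847 features called, and it called 2 features between strains averaged. Leaving out 1 array at a time, 12 of 440 values of the 10 genes turned sign. Only the HXT4 and MTH1 values that passed with all 8 arrays could lose a call. Each of these except the HXT4 average lost its call in some of these fits, as given above. Values that kept their sign but moved by over 1.5 times numbered 50 with an array left out and 19 under the other settings, and 0 of these values passed as reported. The genes called ranged from 0 to 0 for MMS in the null strain, 0 to 2 in wild type and 1 to 3 averaged. The features called ranged from 1 to 13, 0 to 280 and 415 to 704 for MMS in the null strain, in wild type and averaged, and from 1 to 2 and 1 to 1 between strains untreated and averaged. The estimates that turned sign ranged, for MMS in the null strain, from -0.30 to 0.018 (HXT3) and -0.54 to 0.64 (SNF3), and for SNF3 in wild type from -0.57 to 0.063. Between untreated strains they ranged from -0.22 to 0.49 (HXT2), -0.053 to 0.32 (HXT6) and -0.30 to 0.88 (SNF3), and with MMS from -0.037 to 0.21 (HXT6) and -0.044 to 0.035 (HXT7). For the listed pathway genes past the threshold, a recomputation chosen after seeing the data, 122 of 345 values lost their call, 110 of them with an array left out, and 0 turned sign. The averages of STD1, CDC53, ADH2, GAL10 and MAL11 passed in all 16 fits. The cause of these changes was not tested beyond fewer arrays or features entering a fit.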
